A study of Mus musculus with 6 samples.

Results

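Rbpj and 9 other genes of the Notch pathway were examined in Th17 cells grown with and without desIgf1, a form of IGF-1 that lacks its first residues and escapes capture by the IGF-binding proteins. The 10 genes (Rbpj, Notch1, Notch2, Hes1, Dtx1, Nrarp, Maml1, Maml2, Numb and Adam10) were matched by symbol among 39179 genes in the deposited tables, and all 10 were found. Rbpj was selected on its CPM in the desIgf1 and control libraries, where earlier results were in view, and the others as genes of its pathway. Their desIgf1 against control values are therefore a description and support nothing.

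Libraries 1 to 3 of the desIgf1 group came from cultures with 30 ng/mL desIgf1, and libraries 1 to 3 of the control group from cultures without it. All 6 came from splenic naive CD4+ T cells of C57BL/6 mice in which human CD2 reports Il17a, Thy1.1 reports Ifng and GFP reports Foxp3. Every culture received 5 µg/mL soluble anti-CD3, irradiated splenocytes depleted of CD4+ cells, 20 ng/mL IL-6, 2.5 ng/mL TGF-β, and antibodies to IFN-γ and IL-4 at 10 µg/mL each. RNA was taken on day 5 from cells sorted as human CD2+ and negative for Thy1.1 and GFP. The protocol text names desIgf1 for all 6 libraries, so the groups follow the sample titles and the series design. Splenocytes include cells known to carry Notch ligands, and the labels do not give their number per culture.

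Notch receptors are cut at the cell surface by the protease ADAM10 and then within the membrane by γ-secretase, and the freed intracellular part enters the nucleus. There it binds RBPJ together with a Mastermind-like coactivator (MAML1 or MAML2) and switches target genes on. Without it, RBPJ sits with corepressors such as SPEN at the same genes. Hes1, Dtx1 and Nrarp are classical targets, and NUMB and NRARP restrain the pathway. In mouse Th17 cells RBPJ has been described as an activator of Il23r, the receptor for IL-23, and as a repressor of Il10.

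Gene counts summed to between 34567899 and 47929948 per library. Markers of T cells and Th17 cells summed to 4703 to 5339 CPM (counts scaled to library size with TMM factors) under desIgf1 and 4364 to 4577 CPM in the controls. The 6 B cell markers summed to 1.23 to 1.82 CPM under desIgf1 and 1.45 to 3.81 CPM in the controls. The 6 macrophage and monocyte markers summed to 11.0 to 16.6 CPM under desIgf1 and 5.21 to 14.2 CPM in the controls, and the 6 dendritic cell markers to 3.51 to 10.4 CPM under desIgf1 and 1.97 to 4.90 CPM in the controls. The 5 CD8 T and NK cell markers summed to 8.46 to 16.5 CPM under desIgf1 and 5.44 to 13.3 CPM in the controls. Of the dendritic list Xcr1 and Siglech had 0 counts in all 6 libraries while Batf3 reached 7.07 CPM, and of the CD8 T and NK list Ncr1 had 0 counts while Cd8b1 reached 10.9 CPM. On the first principal component, with 43.5% of the variance, the number 3 library of each group lay away from numbers 1 and 2, and Rbpj values without number 3 are given below.

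Promoter sequences were taken from RefSeq (GRCm38.p6), as 250 bases before to 50 bases after an annotated start, and 9 of the 10 genes had an entry. Capitals mark TGGGAA, the core that RBPJ binds, or TTCCCA, the same letters on the other strand. The motif was found in windows of 2 of the 9 genes, Rbpj and one start of Maml2, beside 28.3% of all genes in the table, and in 3 of their 13 windows, beside 25.6% of all 32851 windows. Rbpj is shown because its level differed most of the 10 genes and the window shown holds the core on both strands, at offsets -149 and -65 from the start. Another Rbpj window, chr5:53590236-53590535 (+), overlaps it. The core at offset -205 of that window is the same site as the core at -65, so this site is counted in both windows. Nrarp is shown as a classical target with no such letters in this window, and Il17a as the gene of the sort gate, with the core at offset -174. The windows are chr5:53590096-53590395 (+) for Rbpj, chr2:25180508-25180807 (+) for Nrarp and chr1:20730655-20730954 (+) for Il17a.
Rbpj: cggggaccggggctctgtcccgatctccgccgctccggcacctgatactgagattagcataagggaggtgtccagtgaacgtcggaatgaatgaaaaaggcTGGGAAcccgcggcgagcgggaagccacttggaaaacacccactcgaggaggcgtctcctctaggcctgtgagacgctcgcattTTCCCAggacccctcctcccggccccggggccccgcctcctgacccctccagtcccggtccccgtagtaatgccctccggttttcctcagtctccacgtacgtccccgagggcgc
Nrarp: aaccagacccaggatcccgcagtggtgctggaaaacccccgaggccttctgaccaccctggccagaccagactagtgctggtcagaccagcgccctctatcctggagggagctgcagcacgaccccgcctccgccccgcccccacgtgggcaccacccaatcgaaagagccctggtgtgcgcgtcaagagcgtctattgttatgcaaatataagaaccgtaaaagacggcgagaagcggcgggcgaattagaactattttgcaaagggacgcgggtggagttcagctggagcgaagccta
Il17a: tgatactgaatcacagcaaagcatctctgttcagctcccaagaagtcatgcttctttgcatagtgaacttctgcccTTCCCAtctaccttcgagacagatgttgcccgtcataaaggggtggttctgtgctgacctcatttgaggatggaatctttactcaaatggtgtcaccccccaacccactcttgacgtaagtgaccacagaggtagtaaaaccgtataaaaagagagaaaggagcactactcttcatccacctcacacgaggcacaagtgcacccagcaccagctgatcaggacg
A match of these letters describes the window only, and no binding was measured in these libraries.

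Rbpj was the one gene of the 10 whose desIgf1 libraries all lay above all controls. It is the transcription factor through which all Notch receptors act on DNA (chr5:53466152-53657362). Its level was 173, 211 and 148 CPM in desIgf1 libraries 1, 2 and 3, against 93.5, 140 and 99.8 CPM in control libraries 1, 2 and 3. The lowest desIgf1 library, number 3, was close to the highest control, number 2, so the groups were separate by a small margin. The means were 178 ± 31.7 CPM under desIgf1 and 111 ± 25.3 CPM in the controls (SD, n = 3 each), a log2 fold change of 0.68 ± 0.19 (SE). Within replicate numbers 1, 2 and 3 the log2 difference was 0.89, 0.59 and 0.57, and without both number 3 libraries the log2 fold change was 0.72. In these sorted bulk samples, more cells with Rbpj RNA and more Rbpj RNA per cell cannot be told apart.

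The fit across all 13846 tested genes, edgeR's quasi-likelihood test with Benjamini-Hochberg adjustment, called 0 genes at an adjusted p of 0.05 (0% of genes), and 1130 genes (8.16%) had an unadjusted p under 0.05, with 4.75% of genes higher and 3.42% lower. DESeq2 called 208 genes (1.48% of 14097). With the replicate number as a block edgeR called 44 genes (0.318%). Of the 9 members that passed the filter on low counts, 0 were called by edgeR in either fit or by DESeq2, and 2 had an unadjusted p under 0.05 without the block, Rbpj (higher) and Notch2 (lower). Rbpj stood at an adjusted p of 0.452 in the first fit and 0.0699 with the block, and the other 8 members at 0.608 to 0.961 and 0.389 to 0.842. Nothing is read from these values about the members, since the contrast was known when they were chosen. Genes whose groups did not overlap in CPM made up 7.31% of all tested genes with desIgf1 higher and 6.18% with desIgf1 lower. Genes higher in all 3 same-numbered pairs made up 20.9%, and genes lower in all 3 made up 17.2%. Of the 9 members, Rbpj was higher in all 3 pairs, and Notch1, Nrarp and Numb were lower in all 3.

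**Figure D1:**
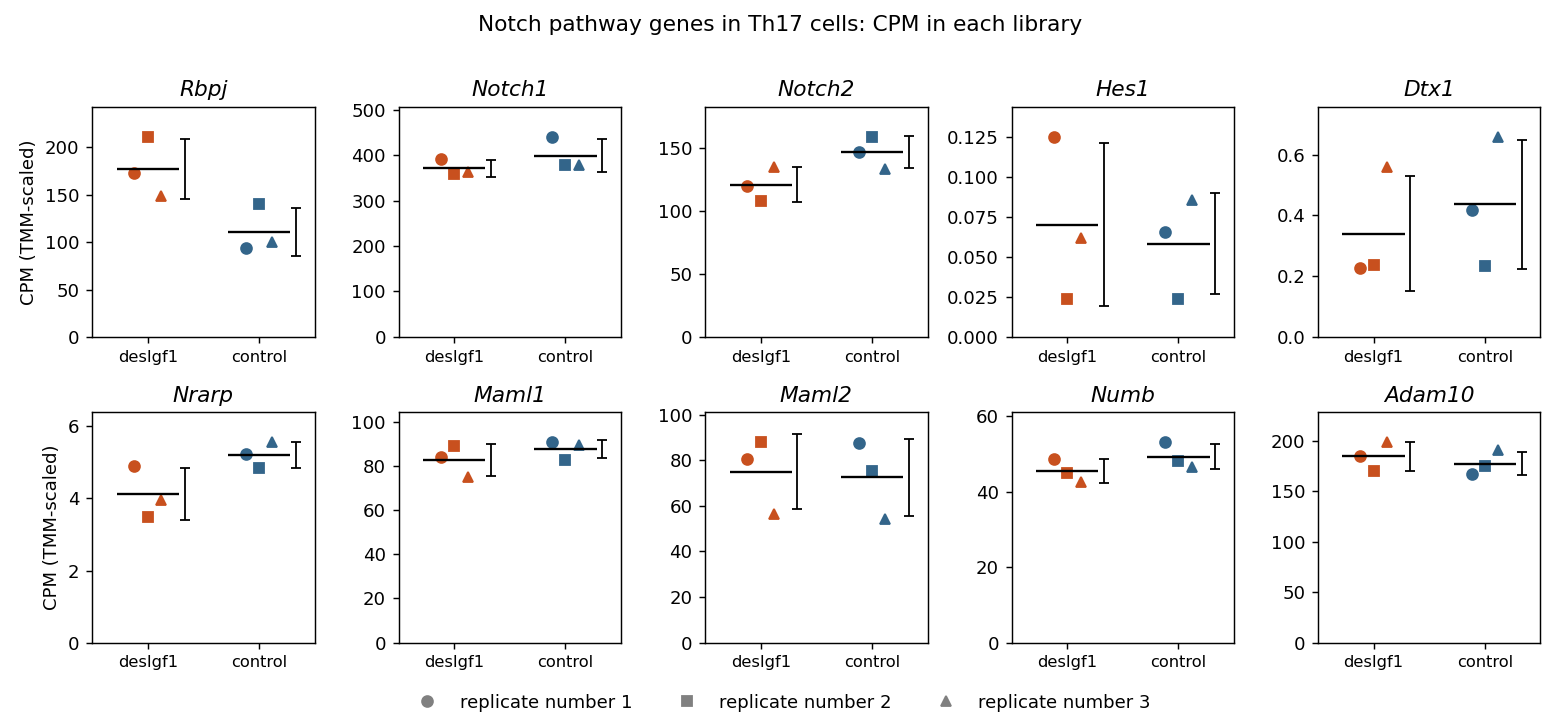
CPM (vertical axis, from 0) of the 10 Notch pathway genes in each library, desIgf1 left and control right, with marker shapes for replicate numbers, a line at the mean and a bar of 1 SD either side (n = 3 per group). Rbpj alone separates, with desIgf1 libraries at 148 to 211 CPM and controls at 93.5 to 140 CPM, and the Hes1 panel spans values of 5 counts or fewer.

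The receptors were both well expressed and neither was higher with desIgf1. Notch1, the receptor needed for T cell commitment in the thymus (chr2:26457903-26516663), had 391, 358 and 362 CPM under desIgf1, against 440, 378 and 377 CPM in the controls. The groups overlapped, and the log2 fold change was -0.11 ± 0.10. Notch2 (chr3:98013527-98150361), a receptor best known in marginal zone B cells and also made by T cells, had 120, 108 and 135 CPM under desIgf1, against 147, 159 and 134 CPM in the controls. Only desIgf1 library 3 reached the range of the controls, and the log2 fold change was -0.28 ± 0.12. Its difference was -0.29 in number 1, -0.56 in number 2 and 0.01 in number 3. The B cell markers summed to 1.23 to 1.82 CPM under desIgf1, against 1.45 to 3.81 CPM in the controls, and the part of B cells in the Notch2 value was not tested.

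The level of receptor RNA relative to Rbpj RNA did not overlap between the groups. Per kilobase of merged exons, Notch1 stood at 2.02, 1.52 and 2.19 times the level of Rbpj in desIgf1 libraries 1 to 3, against 4.22, 2.42 and 3.38 times in controls 1 to 3. All desIgf1 ratios lay below all control ratios. Notch2 stood at 0.820, 0.603 and 1.08 times the level of Rbpj with desIgf1, against 1.86, 1.34 and 1.58 times in controls. The ratio of Notch1 to Notch2 overlapped, at 2.47, 2.52 and 2.03 with desIgf1 and 2.27, 1.80 and 2.14 in controls. These ratios restate the Rbpj values and were not tested.

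The surface protease Adam10 (chr9:70678997-70780229) had 185, 170 and 198 CPM under desIgf1, against 167, 174 and 190 CPM in the controls. The groups overlapped almost fully and the log2 fold change was 0.06 ± 0.10. Numb (chr12:83794034-83921934), an adaptor that removes Notch from the membrane, had 48.7, 45.0 and 42.4 CPM under desIgf1, against 53.0, 48.2 and 46.6 CPM in the controls. It was lower in each number, with log2 differences of -0.12, -0.10 and -0.14, and the log2 fold change was -0.12 ± 0.11.

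The Mastermind-like coactivators showed no separation either. Maml1 (chr11:50255634-50292311) had 84.3, 89.3 and 75.0 CPM under desIgf1, against 90.8, 83.0 and 89.5 CPM in the controls. Maml2 (chr9:13297957-13709388) had 80.7, 87.8 and 56.4 CPM under desIgf1, against 87.7, 75.4 and 54.2 CPM in the controls. Maml2 was lowest in the number 3 library of each group, by 0.58 on the log2 scale against the mean of numbers 1 and 2 in either group. Its log2 fold change was 0.05 ± 0.22 without the block and 0.05 ± 0.10 with it.

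The 3 classical targets were low. Nrarp (chr2:25180758-25183339), a small ankyrin-repeat protein that feeds back on Notch, had 4.91, 3.49 and 3.97 CPM under desIgf1, against 5.24, 4.83 and 5.56 CPM in the controls. Only desIgf1 library 1 reached the range of the controls, and the log2 fold change was -0.34 ± 0.22, lower in all 3 numbers. Dtx1 (chr5:120680202-120711927), a ubiquitin ligase gene induced by Notch in T cells, had 9, 10 and 27 counts with desIgf1 and 19, 10 and 23 counts in controls. Its number 3 libraries were higher than the mean of numbers 1 and 2 by 1.12 with desIgf1 and by 0.97 in controls on the log2 scale, a wider gap than that between the groups (-0.33 ± 0.55).

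Hes1 (chr16:30064384-30067796), a repressor that marks Notch signalling in many tissues, had 5, 1 and 3 counts with desIgf1 and 3, 1 and 3 counts in controls, and did not pass the filter. Its means were 0.0703 ± 0.0513 CPM under desIgf1 and 0.0584 ± 0.0319 CPM in the controls (SD, n = 3 each). With so few counts the groups overlapped, and a small difference in Hes1 could not be seen at this depth.

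**Figure D2:**
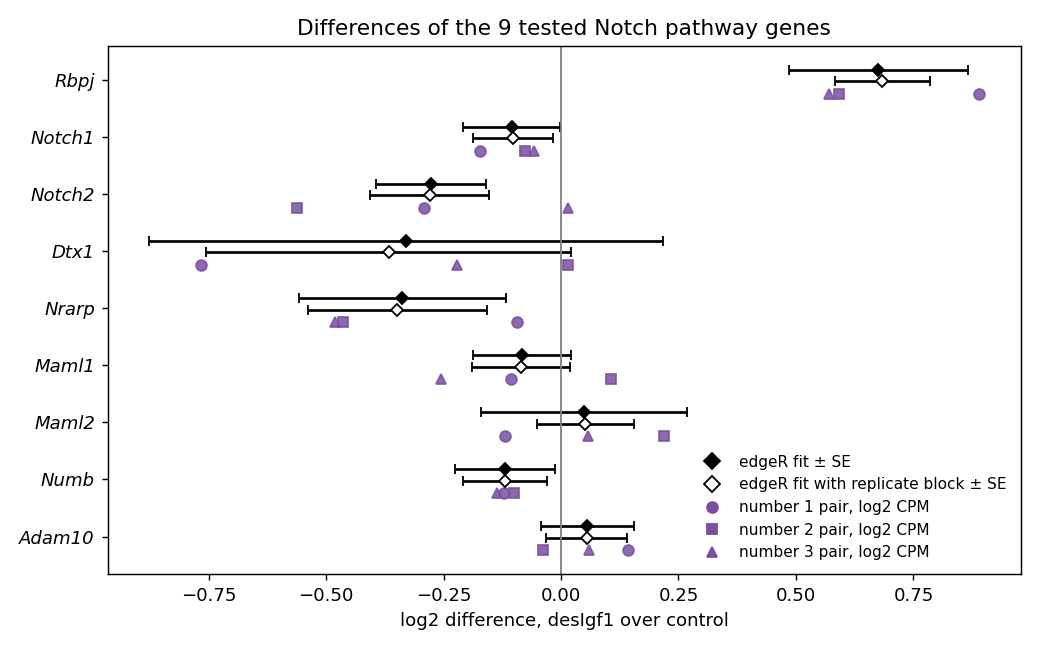
Log2 difference of desIgf1 over control (horizontal axis) for the 9 tested genes, with the edgeR estimate and its SE (filled diamonds), the estimate with the replicate number as a block (open diamonds), and the difference within each replicate number (purple). Rbpj lies at 0.57 to 0.89 in the 3 numbers, while Maml1, Maml2, Adam10, Notch2 and Dtx1 have numbers on both sides of 0.

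Per kilobase of merged exons, the order of levels was led by Adam10 at 37.5 ± 2.88 CPM per kb with desIgf1 and 36.1 ± 2.39 in controls, then Notch1 at 26.0 ± 1.24 and 28.0 ± 2.54. Both differed from their neighbours beyond the range of the libraries in either group. With desIgf1 the next 5 were Maml1, Rbpj, Numb, Maml2 and Notch2, at 15.0, 13.9, 11.6, 11.4 and 11.2 CPM per kb, and each neighbouring pair overlapped. In controls Maml1 stood at 15.9 CPM per kb, above the range of Notch2 at 13.6, and then Numb at 12.6, Maml2 at 11.0 and Rbpj at 8.72, with overlap between neighbours from Notch2 to Rbpj. Rbpj was thus the fourth of the 10 with desIgf1 and the seventh in controls. Nrarp followed at 1.60 CPM per kb with desIgf1 and 2.02 in controls, and Dtx1 and Hes1 were below 0.13 CPM per kb in every library.
The order depends on the length used. Per kilobase of the longest coding transcript, Adam10 and Notch1 were at 40.1 and 39.0 CPM per kb with desIgf1, and at 38.6 and 42.0 in controls, where Notch1 led. The place of Rbpj moved too. Its merged exons span 12750 bases and its longest coding transcript 5485, and per kilobase of that transcript it was the third of the 10 in both groups, at 32.4 CPM per kb with desIgf1 and 20.3 in controls.

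**Figure D3:**
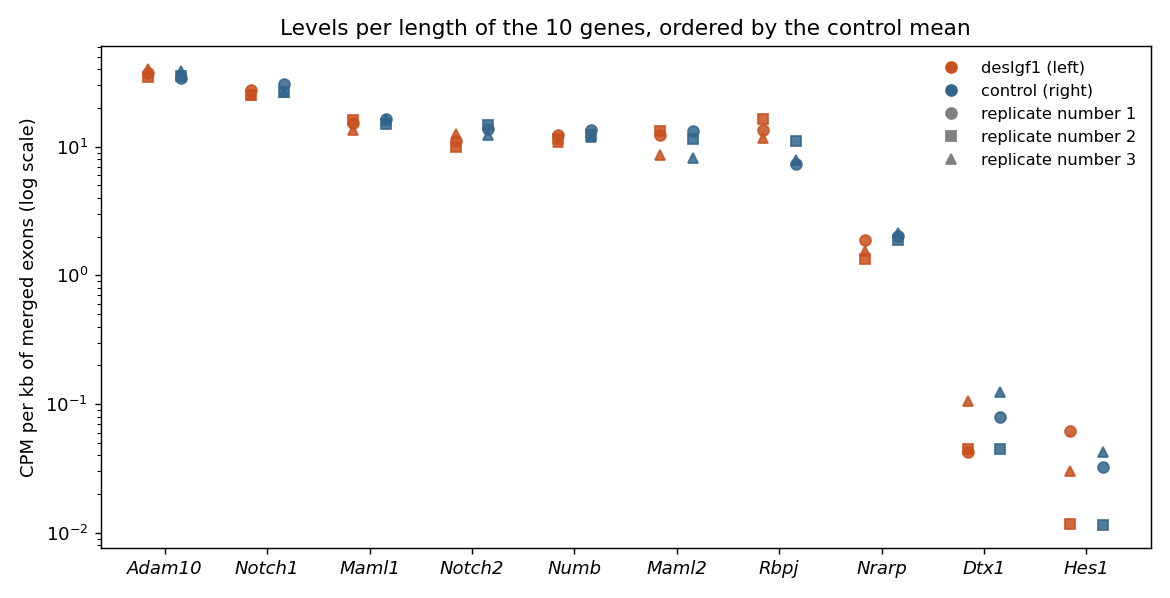
CPM per kilobase of merged exons (log scale) for the 10 genes in every library, desIgf1 left of control, ordered by the control mean from Adam10 to Hes1. Adam10 and Notch1 lie at 25.2 to 40.4, a middle group of 5 genes that includes Rbpj at 7.33 to 16.6, and Nrarp, Dtx1 and Hes1 well below.

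Genes that overlap or resemble a member had low counts where they were counted, which does not measure how many reads are shared. Of 2 processed pseudogenes of Rbpj, Rbpj-ps3 had 4 to 23 counts and Rbpj-ps1 0 to 5 per library, against 3486 to 8894 for Rbpj, though reads that fit several places equally well were not counted. The antisense gene 0610009E02Rik shares 1068 exonic bases with Notch1 and had 4 to 23 counts, against 13167 to 20077 for Notch1. Reads set apart as ambiguous between genes are in neither count. An antisense gene annotated over 2051 exonic bases of Nrarp has no entry in the deposited tables, so it had no count to compare. The strand setting of the counting is not given in the sources used here.

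Among 9002 tested genes at a mean of 10 CPM or more, the 5 whose log2 CPM followed Rbpj most closely over the 6 libraries were Zfp280c (Pearson's r = 0.998), Eif3m (0.998), Hook1 (0.996), Selenok (0.993) and Rnf13 (0.992). Zfp280c, a zinc finger gene, had 44.8, 48.9 and 41.4 CPM under desIgf1, against 34.3, 41.4 and 35.7 CPM in the controls. Like Rbpj it was highest in the number 2 library of each group. Hook1, a microtubule adaptor, had 72.1, 78.7 and 63.8 CPM under desIgf1, against 47.5, 60.2 and 50.6 CPM in the controls. The 6 points share their groups and numbers, and ranking so many genes over 6 libraries yields high values, so these are a description. With the mean of each number taken out, 0 of these 5 remained among the 5 most alike, although their own r stayed at 0.993 to 0.999.

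A wider list of 81 genes of the pathway, arranged by role and drawn up with earlier results of these data known, held 66 genes that passed the filter. Of these edgeR called 0, with the block or without it, beside 0.318% and 0% of all genes, and DESeq2 called 3 (Aph1b, Tle4 and Hey1) beside 1.48%. Without the block 5 were higher and 5 lower at an unadjusted p under 0.05, or 7.58% each, beside 4.75% and 3.42% of all genes, and with the block 17 (25.8%) were under it in either direction, beside 14.3%. The median log2 fold change was -0.06, against -0.01 over all tested genes. In 7 genes (10.6%) all desIgf1 libraries were above all controls and in 7 (10.6%) below, beside 7.31% and 6.18% of all tested genes, so neither share is read as particular to the list. The higher genes were Dll4, Pofut1, Aph1b, Itch, Cir1, Il17a and Il17f, and the lower ones included Aph1a, Spen, Tle4, Hey1 and Il10. Without the number 3 libraries these counts were 20 and 19, or 30.3% and 28.8%, beside 27.8% and 25.5% of all genes.

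**Figure D4:**
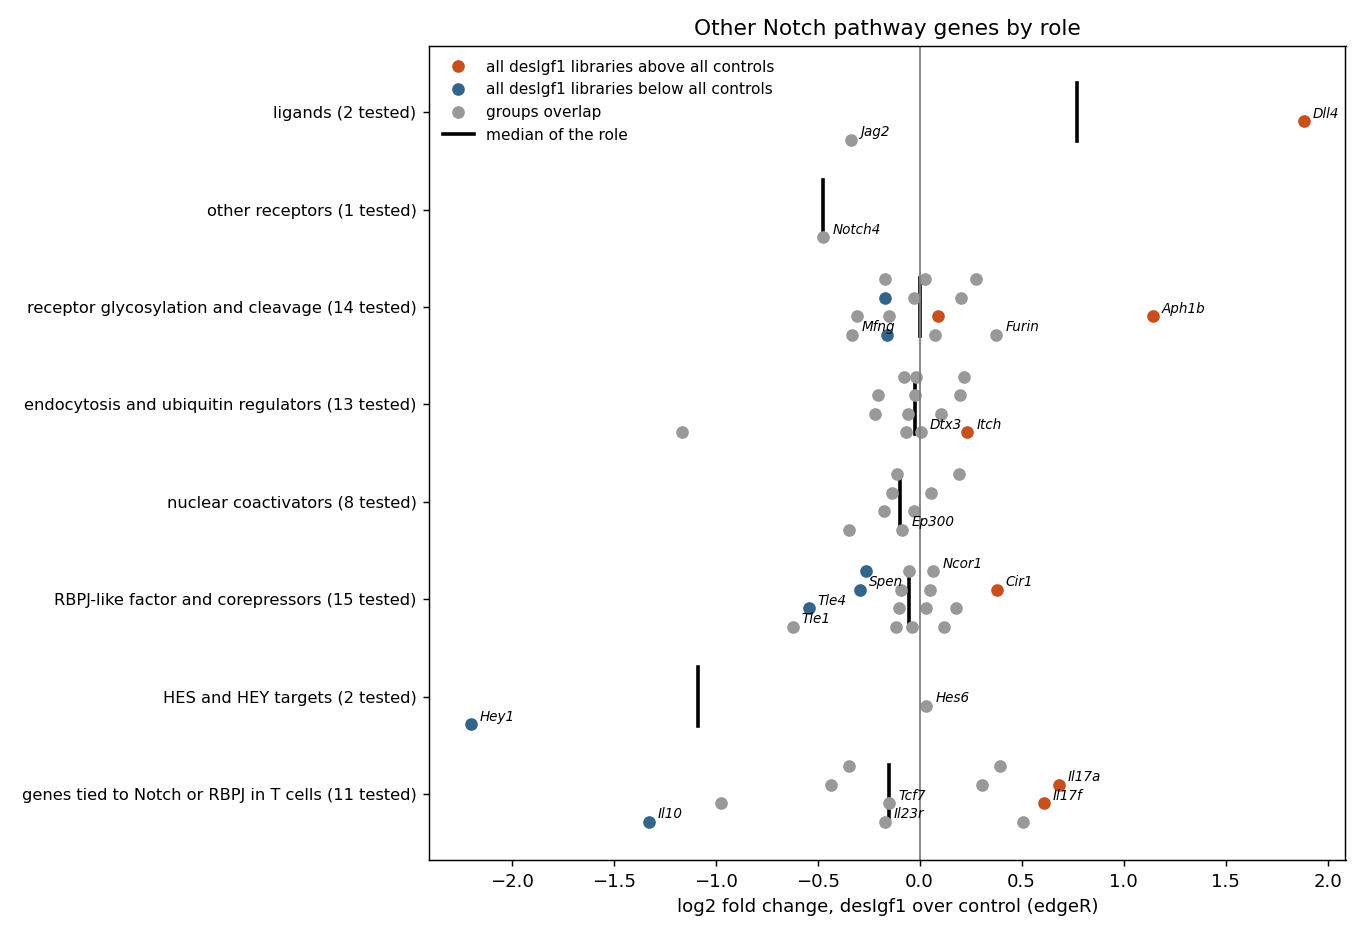
Log2 fold change of desIgf1 over control (horizontal axis) for 66 tested genes of the wider Notch list by role (vertical axis, position within a role is arbitrary), with colour for genes whose groups do not overlap and a line at the median of each role. Most genes lie within 0.5 of 0, and Dll4, Aph1b, Hey1, Il10 and Dtx4 lie beyond 1 in size.

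Ligand RNA was scarce in the sorted cells. Jag2, the highest of 5, had 2.70, 5.94 and 2.23 CPM under desIgf1, against 4.85, 4.29 and 4.58 CPM in the controls. Dll4, a ligand that was singled out after its values were seen, had 21, 32 and 94 counts with desIgf1 and 13, 6 and 16 in controls, with no overlap in CPM and a log2 fold change of 1.88 ± 0.63 (edgeR adjusted p = 0.527). Its highest library, desIgf1 number 3, also had the highest sum of dendritic cell markers, 10.4 CPM, of which Batf3 alone gave 7.07 CPM. Xcr1 and Siglech had 0 counts there, and the part of dendritic cells in the Dll4 value was not tested. Dll1, Dll3 and Jag1 had at most 14 counts in any library. Of the other receptors, Notch4 was below 1 CPM in every library and Notch3 had at most 15 counts.

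Among 14 genes of receptor glycosylation and cleavage, the median log2 fold change was 0.00, and edgeR called 0 and DESeq2 1 (Aph1b). Aph1b, a subunit of γ-secretase, had 3.81, 4.20 and 3.72 CPM under desIgf1, against 1.51, 1.76 and 2.03 CPM in the controls, and the groups were well apart at a low level. Its log2 fold change was 1.14 ± 0.24 (edgeR adjusted p = 0.316, and 0.124 with the block; DESeq2 adjusted p = 0.000896). Aph1a, the alternative subunit, was at 9.96, 9.07 and 10.6 CPM under desIgf1, below 11.1, 10.9 and 11.3 CPM in controls, a log2 fold change of -0.17 ± 0.15. The fringe glycosyltransferase Mfng, which tunes the response to ligands, was at 92.7, 84.1 and 94.8 CPM under desIgf1 and 122, 90.3 and 128 CPM in the controls (log2 -0.33 ± 0.15). Furin, the protease that matures the receptor, was at 783 ± 155 CPM under desIgf1 and 604 ± 123 CPM in the controls (SD, n = 3 each), with overlap between the groups. Within numbers 1, 2 and 3 Furin was higher by 0.34, 0.43 and 0.36 on the log2 scale (edgeR adjusted p = 0.630, and 0.160 with the block).

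Of 13 tested endocytosis and ubiquitin regulators 0 were called by edgeR or DESeq2, with a median log2 fold change of -0.02. Itch, a ubiquitin ligase that acts on Notch, had 124, 129 and 112 CPM under desIgf1, against 106, 103 and 102 CPM in the controls, separate but by 0.23 ± 0.09 on the log2 scale (edgeR adjusted p = 0.584). Dtx3, the most abundant, had 211 ± 21.3 CPM under desIgf1, against 210 ± 52.3 CPM in the controls. The 8 nuclear coactivators held 0 genes called by either tool (median -0.10), and Ep300, a histone acetyltransferase that joins the Notch complex, was at 256 ± 29.0 CPM under desIgf1 and 271 ± 17.1 CPM in the controls (SD, n = 3 each).

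The corepressor list had 15 tested genes with a median log2 fold change of -0.05, of which edgeR called 0 and DESeq2 1 (Tle4). Spen, the scaffold that carries repressor enzymes to RBPJ, had 188, 190 and 188 CPM under desIgf1, against 232, 220 and 242 CPM in the controls, a log2 fold change of -0.29 ± 0.08 (edgeR adjusted p = 0.446, and 0.226 with the block). Spen was lower in all 3 numbers and its groups were separate. Tle4, a Groucho-type corepressor, was at 21.6, 19.3 and 19.8 CPM under desIgf1 and 29.6, 28.3 and 30.5 CPM in the controls (log2 -0.54 ± 0.11, edgeR adjusted p = 0.316, and 0.130 with the block; DESeq2 adjusted p = 0.00289). Tle1 had 12.1, 14.0 and 8.89 CPM under desIgf1, against 21.5, 19.9 and 12.5 CPM in the controls. Its groups overlapped, while within numbers 1, 2 and 3 the log2 difference was -0.82, -0.50 and -0.49 (edgeR adjusted p = 0.608, and 0.158 with the block).
Other corepressors did not share this order. Cir1, which links RBPJ to histone deacetylases, was at 8.84, 11.1 and 8.93 CPM under desIgf1, above 8.11, 7.25 and 6.87 CPM in controls. Ncor1, the most abundant of the list, had 633 ± 57.4 CPM under desIgf1, against 604 ± 42.0 CPM in the controls. The Rbpj relative Rbpjl had 0 counts in all 6 libraries, which allows up to 0.0626 to 0.0868 CPM per library (3 counts, counting error only).

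Of 6 HES and HEY genes 4 had at most 9 counts in any library, and 2 were tested. Hes6, a family member known to oppose HES1, had 34.8, 36.3 and 31.9 CPM under desIgf1, against 33.5, 31.1 and 36.1 CPM in the controls. Hey1, a repressor induced by Notch in many tissues, was singled out after its values were seen. It had 7, 8 and 24 counts with desIgf1 and 63, 62 and 42 counts in controls, so both groups rest on few reads. Its log2 fold change was -2.20 ± 0.46 (edgeR adjusted p = 0.316, and 0.137 with the block, and DESeq2 adjusted p = 0.00407). Hey1 was lower in all 3 numbers, as were 17.2% of all tested genes, and a link to Rbpj was not tested.

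Genes tied to Notch or RBPJ in T cells lay on both sides of no change, with 5 log2 fold changes above 0 and 6 below among 11 tested and 0 called by edgeR or DESeq2. Il23r is given for the role stated above. It had 38.7, 35.7 and 22.2 CPM under desIgf1, against 42.9, 53.0 and 12.6 CPM in the controls, lowest in both number 3 libraries, with a log2 fold change of -0.17 ± 0.49. Il10 had 24, 22 and 51 counts with desIgf1 and 110, 58 and 60 in controls, or 0.726 ± 0.287 and 1.83 ± 0.534 CPM (SD, n = 3 each), a log2 fold change of -1.33 ± 0.39 (edgeR adjusted p = 0.489, and 0.185 with the block). Il10 was lower in each replicate number, as were 17.2% of all tested genes, and a link to Rbpj was not tested.
Il17a, whose reporter was the sort gate, had 125, 159 and 138 CPM under desIgf1, against 87.7, 109 and 66.0 CPM in the controls. Il17f, another Th17 cytokine gene, averaged 1022 ± 101 CPM under desIgf1 and 670 ± 152 CPM in the controls (SD, n = 3 each). Tcf7, a T cell factor downstream of Notch in thymocytes, was the most abundant of the list, at 1838 ± 211 CPM under desIgf1 and 2038 ± 405 CPM in the controls. Il22 had 8, 7 and 224 counts with desIgf1 and 1, 1 and 11 in controls, so number 3 libraries were highest in either group, and it did not pass the filter.

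**Figure D5:**
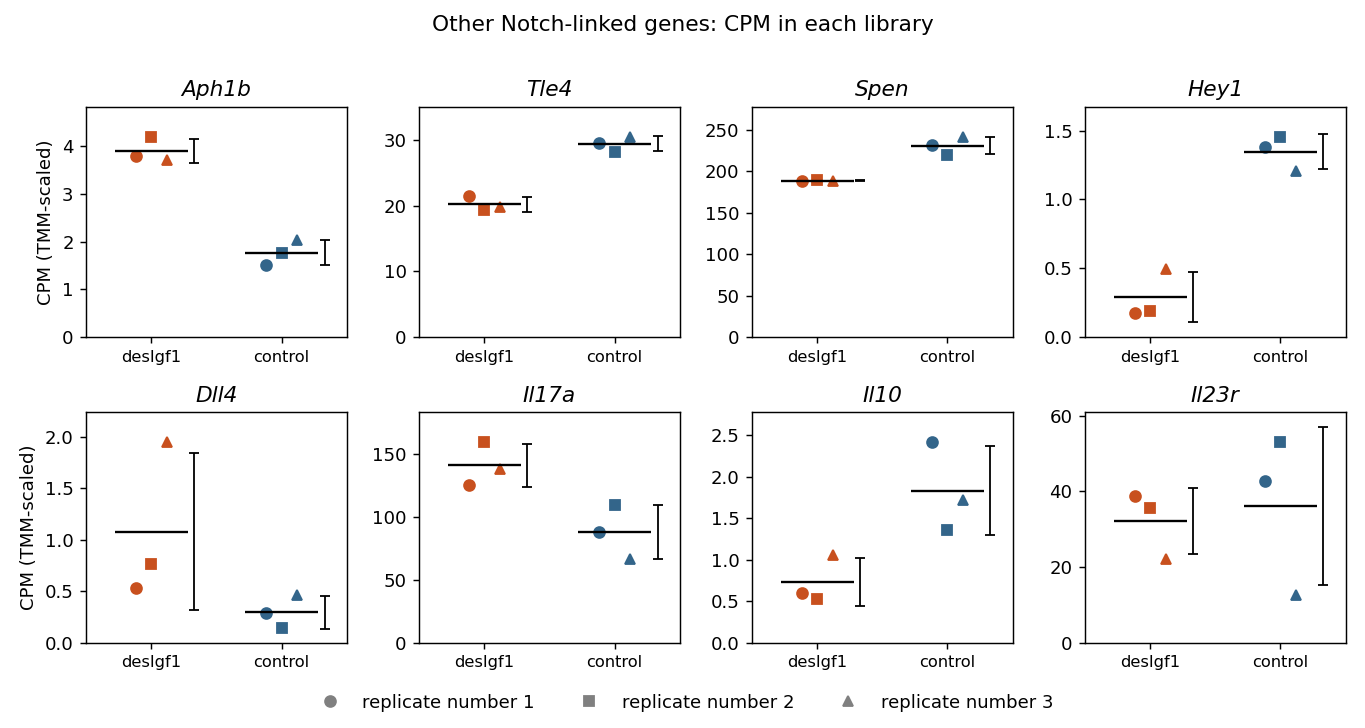
CPM (vertical axis, from 0) of 8 other genes linked to Notch in each library, desIgf1 left and control right, with a line at the mean and a bar of 1 SD either side (n = 3 per group). Aph1b, Dll4 and Il17a have all desIgf1 libraries above all controls, Tle4, Spen, Hey1 and Il10 all below, and Il23r overlaps.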

How the data were processed

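RNA was measured by sequencing in 6 libraries made with a stranded mRNA kit, per the labels' protocols. The deposited files give raw read counts, as whole numbers, for each Ensembl gene. Per the submitters' processing notes, the tools named were HTSeq 0.7.2, STAR 2.5.3 and Trim Galore 0.4.5, besides SAMtools 0.1.18, R 3.4.3 and DESeq2 1.18.1, on GRCm38 (mm10). For the annotation release, strand and other settings the entry is: not given in the sources used here. Each table held 5 summary lines that name no gene; no fit used them. The no-feature line was 13.5 to 15.7% of uniquely placed reads and the ambiguous line 0.712 to 0.761%. Alignments that were not unique were 46.4 to 48.7% of all entries and are not in the gene counts.

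Symbols, coordinates and merged exon lengths came from GENCODE M21 (GRCm38), which matched 37693 identifiers. Tests used the quasi-likelihood fit of edgeR 4.0.16 (R 4.3.3) with robust dispersion, TMM factors and group as the only term, on genes kept by filterByExpr (minimum count 10), with p adjusted by Benjamini-Hochberg over them all and a threshold of 0.05. CPM use TMM factors, and log2 CPM a prior count of 2. SEs of log2 fold changes were derived from the quasi-likelihood F statistic. The fits were tested on simulated data. Alternatives were a replicate block, DESeq2 1.42.0, limma 3.58.1 voom, RLE factors, no filter and left-out libraries.

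Libraries within a group were distinct, with chi-square values of 37.0 to 119 per degree of freedom when their counts were compared. Separate cultures or mice are not stated for the libraries, and p-values then cover only the spread among these libraries, which may be technical. Titles number libraries 1 to 3 in both groups. For each number, the deviations from the group means of its desIgf1 and control library correlated across genes (0.59, 0.32 and 0.55). The numbers were therefore used as pairs in the replicate block and in the differences within numbers, which rests on these values and on no label. The main fit used group only and left this pairing out. For Rbpj the SE was 0.19 in the main fit and 0.10 with the block.

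The members, lists, rule for named genes and alternatives were chosen with earlier results of these data known. Named genes were all members, called genes of the wider list, in each direction its 6 smallest p at a mean of at least 1 CPM, the most abundant gene of each role, and the 5 genes most like Rbpj. Dll4, Hey1, Il23r, Il22, Aph1a, Pofut1 and Dtx4 fall outside that rule and were named after their values were seen. Some genes that the rule names are not reported here.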

Additional observations from a re-analysis of the deposited data

How the results depend on the processing

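Rbpj was chosen on this contrast and the alternatives reuse the same 6 libraries, so its direction under them supports nothing. Rbpj was higher with desIgf1 under all 15 alternatives, with a log2 fold change of 0.53 to 0.88 when 1 library was left out. Its adjusted p over these alternatives ran from 0.000392 to 0.9995. It passed the threshold in 2 of them, both with the replicate block, without the libraries numbered 2 (0.73) or 3 (0.74). Few residual degrees of freedom are left there, and these 2 fits called 620 of 14019 and 1069 of 13987 tested genes. Notch1, Notch2, Nrarp and Numb kept their direction. Maml2 was below 0 without desIgf1 library 1, desIgf1 library 2 or control library 3 (-0.0071, -0.0886 and -0.1216) and with the block without number 2 (-0.0316). With 1 library left out Maml2 ranged from -0.1216 to 0.2092, Adam10 from -0.0258 (without desIgf1 library 3) to 0.1092, and Dtx1 from -0.9194 to 0.0764 (without control library 3), and Maml1 was 0.0010 with the block and 0.0005 without it when number 3 was left out.

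edgeR called 44 genes with the replicate block and 16 without a filter on low counts, DESeq2 called 208, and limma voom and RLE factors 0, with 1141 and 1119 genes at an unadjusted p under 0.05. Leaving out 1 library gave 0 genes each time (547 to 1941 at an unadjusted p under 0.05). With the block it gave 72, 620 and 1069 without numbers 1, 2 and 3, and without a block and without both number 3 libraries 12, an alternative chosen after seeing the data. In the wider list the block called 0 genes and DESeq2 3 (Aph1b, Tle4 and Hey1). The block without numbers 1, 2 and 3 called 1, 10 and 7 genes of the list. Over all tested genes these fits called 72 of 14024, 620 of 14019 and 1069 of 13987. No such count is read as particular to the list. Without both number 3 libraries, 20 of its genes were higher and 19 lower with no overlap, in place of 7 and 7. Of the genes most like Rbpj, 0 were shared once number means were removed. The cause of these changes was not tested. Depth limits Hes1, Dtx1, Hey1 and the scarce ligands.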
